A study of Mus musculus with 3 samples.

Results

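The genes described here are those of glycolysis, the pentose phosphate pathway and the entry of pyruvate into the mitochondrion, with the transcription factor gene Hif1a. They were taken by symbol from a list of these pathways and comprise 42 symbols of the 21992 protein-coding symbols that have a row in the gene tables. RNA bound to chromatin was sequenced after ribosomal RNA depletion from bone-marrow-derived macrophages of C57BL/6J mice, primary cells that had been exposed to Lipid A, the TLR4-activating part of lipopolysaccharide (100 ng/ml, 12 h), then left without it for another 12 h and collected at minute 0 of a repeated exposure. All 3 libraries, biological replicates 1 to 3, belong to this group and carry the same donor identifier, so p-values measure only the spread between these samples, which may be technical. Age and sex were not collected per the labels, and no untreated group was analysed here, so no value here measures what Lipid A did.

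Glycolysis splits glucose into pyruvate in the cytosol, with hexokinase, phosphofructokinase and pyruvate kinase as its main control points. Pyruvate is either reduced to lactate by lactate dehydrogenase and exported by monocarboxylate transporters, or oxidized to acetyl-CoA by the pyruvate dehydrogenase complex, which pyruvate dehydrogenase kinases switch off. The pentose phosphate pathway branches off at glucose-6-phosphate and supplies NADPH and ribose, and macrophages activated through TLR4 are known for high glycolytic activity. Many of the steps are served by several isozyme genes, and HIF-1 alpha is a known activator of several of them.

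Depth was 11958978, 17283529 and 19475027 expected counts (estimated fragments per gene) in replicates 1, 2 and 3, and the starting RNA was 1000, 250 and 500 ng. Levels are given as TPM, values corrected for gene length that sum to the same total in each library. They describe RNA bound to chromatin, and neither protein nor enzyme activity was measured here. All 9 macrophage marker genes examined reached 1 TPM in every library, led by Adgre1 at 347 ± 77.2 TPM (SD, n = 3), Lyz2 at 177 ± 67.5 TPM and Csf1r at 127 ± 1.30 TPM, with Cd14 the lowest at 9.30 ± 2.58 TPM. Replicate 3 stood apart in 10 fibroblast and stromal markers, whose summed level was 0.92, 2.50 and 706 TPM in replicates 1, 2 and 3. All 10 were highest in replicate 3, and in replicate 1 Col3a1, Sparc, Dcn, Lum, Pdgfra and Postn were at 0. In the gene tables no marker of neutrophils or of T and B cells reached 1 TPM in any library. There, of the erythroid list Alas2 alone did, at 19, 17.9 and 9.47 TPM, and of the skeletal muscle list Tnnt3 alone did, at 1.5 TPM in replicate 2. The authors' read-based tables were quantified apart from the gene tables. In them Mpo, Camp, Cd3g, Ms4a1, Ckm and Myh1 also reached 1 TPM in at least 1 library. The highest of these was Ckm, at 2.77 TPM in replicate 1. In bulk RNA a lower share of a cell type and less RNA per cell cannot be told apart.

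Most of the 42 genes were detected on chromatin. In every library 37 of the 42 genes had 1 TPM or more, beside 46.1% of all protein-coding genes, and the count was also 37 without replicate 3. Aldoc, Slc16a1 and Pdk4 stayed under 1 TPM in each library, and Ldhb and Pdk2 crossed that level in some of them. A mean of 10 TPM or more was reached by 27 of the 42 genes, against 27.3% of all protein-coding genes. The median of the mean levels was 18.4 TPM for the 42 genes and 0.92 TPM for all protein-coding genes. The summed level of the 42 genes was 1089, 1349 and 1383 TPM in replicates 1, 2 and 3, and Hk3 alone made up 29.0%, 27.5% and 21.3% of it.

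**Figure D1:**
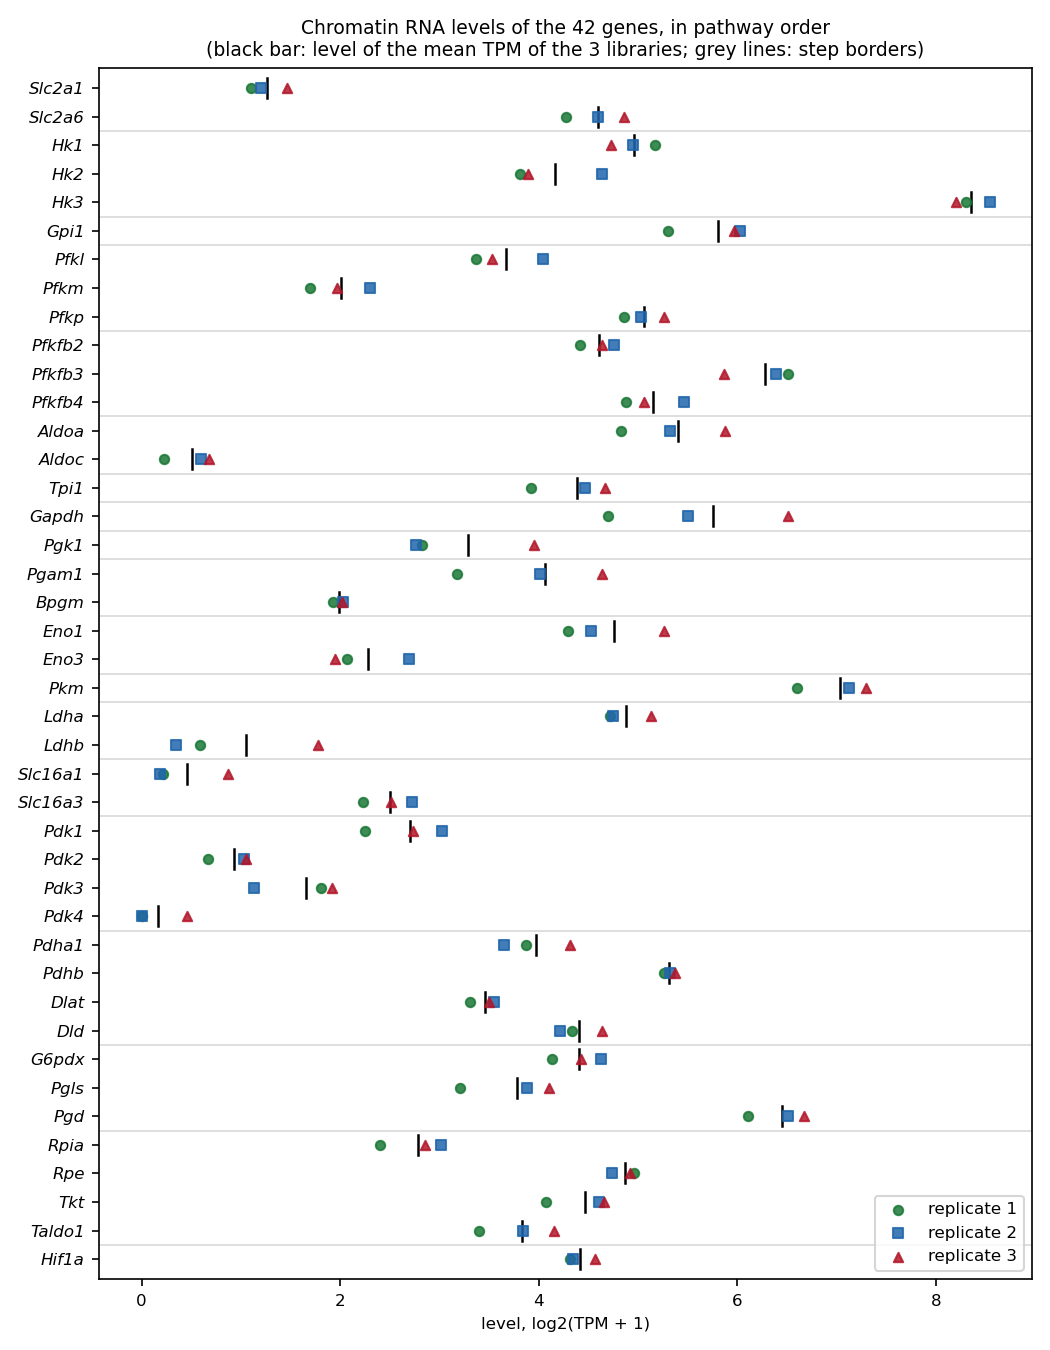
Level of each of the 42 genes on chromatin as log2(TPM + 1) on the horizontal axis, with a symbol for each library, in the order of the pathway from glucose uptake to Hif1a. Hk3 lies to the right of all others in every library, and Pkm, Pgd and Pfkfb3 follow by mean level. Replicate 3 is the highest library for 25 of the 42 genes, with those under 1 TPM counted. Where each library has to reach 1 TPM, it is highest for 20 of 37 members, against 39.9% of all genes kept by that rule.

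Among the genes listed for glucose uptake, that of the classical carrier was not the highest. Slc2a6, which encodes the lysosomal hexose carrier GLUT6, had 18.4, 23.3 and 28.0 TPM in replicates 1, 2 and 3 (mean 23.2 ± 4.78, SD, n = 3), whereas Slc2a1, which encodes the widely expressed plasma membrane carrier GLUT1, had 1.14, 1.31 and 1.77 TPM. The gene Slc2a9, a urate and hexose carrier that is not among the 42, had 25.0, 29.4 and 17.9 TPM. Slc2a9 and Slc2a6 exchanged places between libraries, Slc2a9 being higher in replicates 1 and 2 and Slc2a6 in replicate 3, and their ranges overlapped. Slc2a3, the gene of the high-affinity carrier GLUT3, had a mean of 1.57 ± 0.63 TPM, with a range that overlapped that of Slc2a1. In the read-based tables, which were quantified by the authors apart from the gene tables, Slc2a9 was above Slc2a6 and Slc2a3 above Slc2a1 in all 3 libraries without overlap.

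Among the hexokinases, which trap glucose as glucose-6-phosphate, Hk3 was by far the most abundant. Hk3 (chromosome 13, 55005985 to 55021385, minus strand, mm10) had 315, 371 and 295 TPM, Hk1 had 35.04, 29.9 and 25.6 TPM, and Hk2, the isozyme known to be inducible, had 13.1, 24.0 and 13.9 TPM. The order Hk3, Hk1, Hk2 was the same in all 3 libraries and no ranges overlapped. Hk3 supplied 87.4 ± 0.72% of the hexokinase TPM, an SD that is small beside the 10.8-fold distance from Hk1 to Hk3. Over 3 libraries an exact two-sided sign-flip test cannot give a p below 0.25, the value it gave for both neighbouring pairs, so the order of isozymes here and below is described by the libraries and their ranges. The end of the last Hk3 exon overlaps the end of Unc5a on the other strand, a gene at a mean of 22.6 TPM, and the counting strand is unknown from the sources at hand, so reads of that stretch cannot be assigned with certainty.

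Gpi1, which encodes the isomerase that follows, had 38.4, 64.4 and 61.7 TPM. At the phosphofructokinase step, the committed step of glycolysis, the platelet-type gene Pfkp had 28.1, 31.6 and 37.3 TPM, the liver-type gene Pfkl 9.30, 15.5 and 10.5 TPM and the muscle-type gene Pfkm 2.25, 3.92 and 2.91 TPM. Pfkp was above Pfkl and Pfkl above Pfkm in every library without overlap, and Pfkp held 68.8 ± 6.03% of the step. In the read-based tables Pfkp stayed first, but Pfkm at 15.8 TPM was above Pfkl at 12.8 TPM in replicate 1 and below it in replicates 2 and 3.

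The bifunctional enzymes that make and degrade fructose-2,6-bisphosphate, the allosteric activator of phosphofructokinase, are encoded by 4 genes, and the 3 among the members were above 10 TPM in every library. Pfkfb3, the isozyme known for its high kinase activity, had 90.2, 82.9 and 57.3 TPM, Pfkfb4 had 28.5, 43.2 and 32.3 TPM, and Pfkfb2 had 20.4, 26 and 24.0 TPM. The order was Pfkfb3, Pfkfb4, Pfkfb2 in each library, and the share of Pfkfb3 was 54.5 ± 7.57%. Pfkfb1, not among the 42, followed at 5.12 ± 1.04 TPM. Replicate 3 was the lowest of the libraries for Pfkfb3 and the highest for none of the 3 leading genes.

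**Figure D2:**
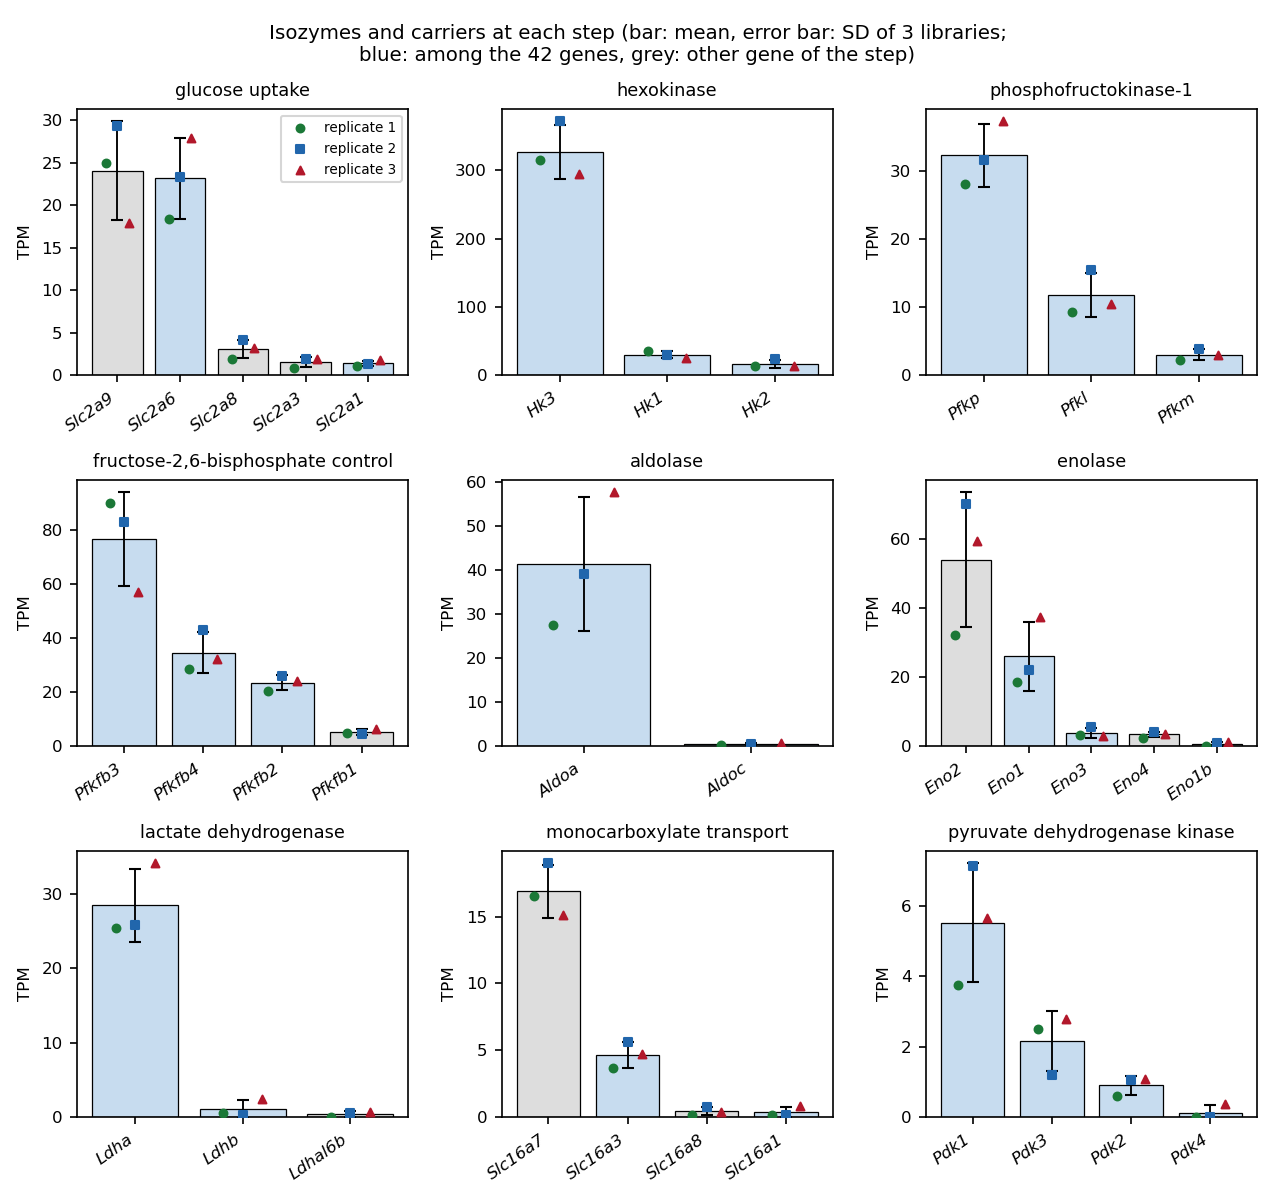
TPM on the vertical axis of each panel for the up to 5 highest genes with a mean above 0.1 TPM at 9 steps that several genes serve; bars are means, error bars the SD of 3 libraries and symbols the libraries. Hk3, Pfkp, Pfkfb3, Aldoa, Ldha and Pdk1 lead their steps, and at glucose uptake, enolase and monocarboxylate transport a gene outside the 42 leads by mean.

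Aldoa was the highest aldolase gene, with 27.5, 39.1 and 57.6 TPM and 98.9 ± 0.18% of the aldolase TPM, while Aldoc, known from brain, had 0.17, 0.51 and 0.60 TPM. Tpi1, which interconverts the triose phosphates, had 14.1, 21.1 and 24.4 TPM. Gapdh (chromosome 6, 125161715 to 125166467, minus strand, mm10), which oxidizes glyceraldehyde-3-phosphate, had 24.9, 44.3 and 90.0 TPM and with that the largest SD relative to its mean of the genes with a mean above 10 TPM. Replicate 3 was the highest library for each of these genes.

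Phosphoglycerate kinase, the first enzyme of the pathway to yield ATP, is encoded by Pgk1 (chromosome X, 106187100 to 106203699, plus strand, mm10), which had 6.10, 5.79 and 14.5 TPM. Pgam1, the mutase that acts next, had 8.06, 15.1 and 23.9 TPM, and Bpgm, which makes 2,3-bisphosphoglycerate, had 2.80, 3.07 and 3.06 TPM. Pgk1 and Pgam1 were highest in replicate 3, whereas Bpgm differed little between libraries.

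The enolase step was led by a gene known as the neuronal isozyme. Eno2 had 32.2, 70.2 and 59.3 TPM, Eno1, the ubiquitous isozyme, had 18.6, 21.98 and 37.4 TPM, and Eno3, the muscle isozyme, had 3.21, 5.47 and 2.87 TPM. Eno2 was above Eno1 in 3 of 3 libraries, although their ranges overlapped, and the read-based tables gave the same order with a smaller distance (44.2, 62.2 and 64.8 TPM for Eno2 and 42.2, 36.3 and 55.5 TPM for Eno1). Eno1b, annotated as protein-coding, had a mean of 0.69 ± 0.60 TPM.

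Pkm, which encodes pyruvate kinase of muscle and of most other tissues, had 96.4, 138 and 156 TPM and was second to Hk3 by mean, at 130 ± 30.8 TPM. The gene makes PKM1 or PKM2 by the choice between 2 exons that exclude each other, exon 9 for PKM1 and exon 10 for PKM2. Both exons have 167 bases, and 103 positions (61.7%) are identical when they are laid side by side without gaps. They are shown because PKM1 and PKM2 differ by this choice. Both are on the plus strand of mm10, taken from the GENCODE M21 transcripts, and capitals mark the 64 positions at which they differ.
Pkm exon 9, chr9:59675029-59675195: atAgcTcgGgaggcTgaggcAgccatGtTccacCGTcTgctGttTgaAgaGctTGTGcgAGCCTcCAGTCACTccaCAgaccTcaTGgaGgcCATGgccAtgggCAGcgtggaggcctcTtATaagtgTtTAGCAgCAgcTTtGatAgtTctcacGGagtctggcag
Pkm exon 10, chr9:59675568-59675734: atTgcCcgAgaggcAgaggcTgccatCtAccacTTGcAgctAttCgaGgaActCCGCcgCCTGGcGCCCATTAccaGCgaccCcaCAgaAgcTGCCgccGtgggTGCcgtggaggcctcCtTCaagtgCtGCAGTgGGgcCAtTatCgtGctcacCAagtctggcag

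The exon 10 transcript Pkm-201 had 23.5, 25.6 and 43.9 TPM in the read-based tables of replicates 1, 2 and 3, and the exon 9 transcript Pkm-202 had 14.4, 12.2 and 15.3 TPM. Pkm-201 was the higher of the pair in every library, with a share of 62.0%, 67.7% and 74.2% (68.0 ± 6.11%, SD, n = 3). It is a share of whole transcripts, which have 2432 bases (Pkm-201) and 2041 bases (Pkm-202) and so also differ outside these exons. Reads of the exons alone were not counted. In the alignment-based transcript tables the share was 66.7%, 74.5% and 78.0%. Replicate 3 had the highest share in both tables, and without it the read-based mean was 64.9%. Unspliced chromatin RNA holds both exons, and the annotated transcript Pkm-203, which spans exon 9 and part of the intron behind it, had 0.47, 1.40 and 0.43 TPM. Another transcript annotated with a retained intron, Pkm-205 of 2113 bases, was far higher. It had 24.2, 33.0 and 36.7 TPM in the read-based tables. In the alignment-based tables its mean of 50.6 TPM was above that of Pkm-201 at 41.8 TPM. A 356-base transcript, Pkm-208, was the highest of the gene in the read-based tables at 44.8 ± 8.77 TPM and had 1.98, 1.42 and 1.01 TPM in the alignment-based ones.

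Ldha was the highest lactate dehydrogenase gene, with 25.4, 25.8 and 34.1 TPM, or 95.4 ± 3.54% of the lactate dehydrogenase TPM. Ldhb, the isozyme of oxidative tissues, had 0.50, 0.27 and 2.43 TPM, from 2, 3 and 37.96 expected counts. Slc16a3, which encodes the lactate exporter MCT4, had 3.68, 5.62 and 4.72 TPM, and Slc16a1, which encodes MCT1, had 0.16, 0.14 and 0.83 TPM. Slc16a7, the gene of MCT2 and not among the 42, was above both in all libraries, with 16.6, 19 and 15.1 TPM. Ldhb and Slc16a1 were near the limit of detection in replicates 1 and 2 and higher in replicate 3.

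The genes of the kinases that inactivate pyruvate dehydrogenase had low levels. Pdk1 had 3.75, 7.12 and 5.66 TPM, Pdk3 had 2.51, 1.2 and 2.77 TPM and Pdk2 had 0.59, 1.04 and 1.08 TPM, which was the order in each library. Pdk4 had 0, 0 and 9 expected counts, and a count of 0 allows up to 3. Genes of the pyruvate dehydrogenase complex itself had higher levels, from 8.89 to 40.3 TPM. Pdhb, the beta subunit of its E1 component, had 37.3, 38.9 and 40.3 TPM, the narrowest relative spread among the 42 genes, and Pdha1, the alpha subunit, had 13.6, 11.6 and 18.9 TPM. Dlat, the E2 component, had 8.89, 10.7 and 10.3 TPM, and Dld, the E3 component, had 19.2, 17.5 and 24.0 TPM. The pyruvate carrier gene Mpc1, from the list of other isozymes and carriers, had a mean of 29.7 ± 2.42 TPM.

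In the oxidative pentose phosphate branch the gene of the last enzyme had the highest level. Pgd, which releases carbon dioxide and the pathway's further NADPH, had 67.8, 90.3 and 101 TPM. G6pdx, the entry enzyme, had 16.5, 23.8 and 20.5 TPM, and Pgls, the lactonase between them, had 8.26, 13.8 and 16.2 TPM. Pgd lay above G6pdx and G6pdx above Pgls in every library. In the branch that rearranges sugars, Rpe, the epimerase, had 30.0, 25.7 and 29.2 TPM, Tkt, transketolase, had 15.8, 23.4 and 24.2 TPM, Taldo1, transaldolase, had 9.58, 13.3 and 16.8 TPM and Rpia, the ribose isomerase, had 4.30, 7.08 and 6.25 TPM. Rpe was the highest of the branch by library in each case, and Rpia the lowest.

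Hif1a had 18.9, 19.3 and 22.7 TPM. Of 9 genes for HIF partners and the enzymes that control HIF, 5 reached 1 TPM in every library, and the highest were Arnt, the partner subunit, at 62.8 ± 6.38 TPM, the prolyl hydroxylase gene Egln2 at 20.1 ± 5.41 TPM and the asparaginyl hydroxylase gene Hif1an at 12.3 ± 0.89 TPM. Egln3 was the lowest at 0, 0 and 0.14 TPM. Of 11 known HIF-1 targets outside glycolysis, 10 reached 1 TPM in every library, led by the demethylase gene Kdm3a at 65.8 ± 4.93 TPM, Vegfa at 56.6 ± 5.87 TPM and P4ha1 at 29.3 ± 3.24 TPM. Adm was the lowest, at 0, 0 and 1.07 TPM. All 20 genes of the tricarboxylic acid cycle, which takes up the acetyl-CoA, reached 1 TPM in every library. Their median of mean levels was 21.6 TPM, with Sdha at 72.0 ± 8.17 TPM, Dlst at 71.8 ± 3.17 TPM and Idh3b at 69.6 ± 11.3 TPM at the top and Sdhc at 4.59 ± 2.11 TPM at the bottom.

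Whether any gene varied between the libraries more than genes of like abundance was tested with edgeR's quasi-likelihood fit over 14839 genes. Of the 42 genes 37 passed its filter on low counts, and none had a Benjamini-Hochberg adjusted p under 0.05, beside 0.162% of all genes tested. Aldoc, Ldhb, Slc16a1, Pdk2 and Pdk4 did not pass the filter, so this result does not cover them. Among them, Ldhb and Slc16a1 had the largest log2 ratios of replicate 3 to replicate 1, at 2.91 and 2.01. At an unadjusted p under 0.05 there were 7, namely Aldoa, Eno1, Gapdh, Ldha, Pfkfb3, Pgam1 and Pgk1, beside 5.81% of all genes. The normalized CPM (TMM) of Gapdh were 33.9, 44.9 and 84.1, those of Pgk1 7.53, 5.65 and 18.6 and those of Eno1 18.6, 22.5 and 44.6. Gapdh had the smallest Benjamini-Hochberg adjusted p (adjusted p = 0.32, edgeR's quasi-likelihood test), followed by Pgk1 (adjusted p = 0.36) and Eno1 (adjusted p = 0.39). The 6 of the 7 other than Pfkfb3 were highest in replicate 3. Without replicate 3 Pfkl was the only member with an unadjusted p under 0.05, and none passed after adjustment. Without the filter on low counts 12 of 43 member IDs had an unadjusted p under 0.05, beside 2037 of all 25532 genes, and 1, Gapdh, passed after adjustment, beside 677 of 25532.

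In direct ratios of TMM-normalized CPM (counts relative to library size, scaled between libraries), 40 members passed a minimum mean of 10 counts. Replicate 3 exceeded replicate 1 in 32 of them, with a median log2 ratio of 0.42 against 0.08 over all 12178 genes compared. Replicate 3 exceeded replicate 2 in 29, with a median of 0.21 against 0.06. A ratio of 2-fold or more over replicate 1 was found for 7 members (11.4% of all genes) and over replicate 2 for 5 (9.79% of all genes). No member was 2-fold lower in replicate 3 than in either other library, where all genes gave 1.09% and 0.698%. Of the members at least 2-fold above both other libraries (Ldhb, Pgam1, Pgk1 and Slc16a1; 8.16% of all genes), Pgk1 had a log2 ratio of 1.29 to replicate 1 and 1.70 to replicate 2, and Pgam1 had 1.41 and 1.00. Over replicate 2, Pgam1 passed with TMM but not with RLE size factors, TPM or read-based counts. Pfkfb3 had the lowest ratio to replicate 1, at -0.91, and -0.48 to replicate 2, where Hk2 was lowest at -0.56. Hk3 had -0.23 and -0.37. Between replicates 2 and 1, without replicate 3, the median was 0.16 against 0.02 over all genes, 25 of the 40 were higher in replicate 2 and none was 2-fold higher (2.96% of all genes) or 2-fold lower (1.68%). Of the 37 members at 1 TPM or more in every library, 20 were highest in replicate 3, beside 39.9% of all such genes. The mean without replicate 3 was 34.6 TPM for Gapdh, 5.95 TPM for Pgk1, 11.6 TPM for Pgam1, 20.3 TPM for Eno1 and 33.3 TPM for Aldoa. The summed stromal markers moved with these ratios, at 706 TPM in replicate 3 against 2.50 TPM or less, and their part in the ratios was not tested. In the authors' deposited table of TPM intervals, whose level is not stated, the interval of replicate 3 lay above those of both other libraries for 7 of 38 members with a mean of 1 TPM or more (Aldoa, Eno1, Gapdh, Pgam1, Pgd, Pgk1 and Pkm), against 8.77% of all genes. In the authors' deposited table it lay below both for Pfkfb3 alone, against 2.12% of all genes. These intervals do not always hold the deposited TPM, which lay above the upper bound in each library for Pkm, Pgd and Hk3. Pgd passed narrowly, with a lower bound of 89.5 TPM in replicate 3 against an upper bound of 89.2 TPM in replicate 2.

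**Figure D3:**
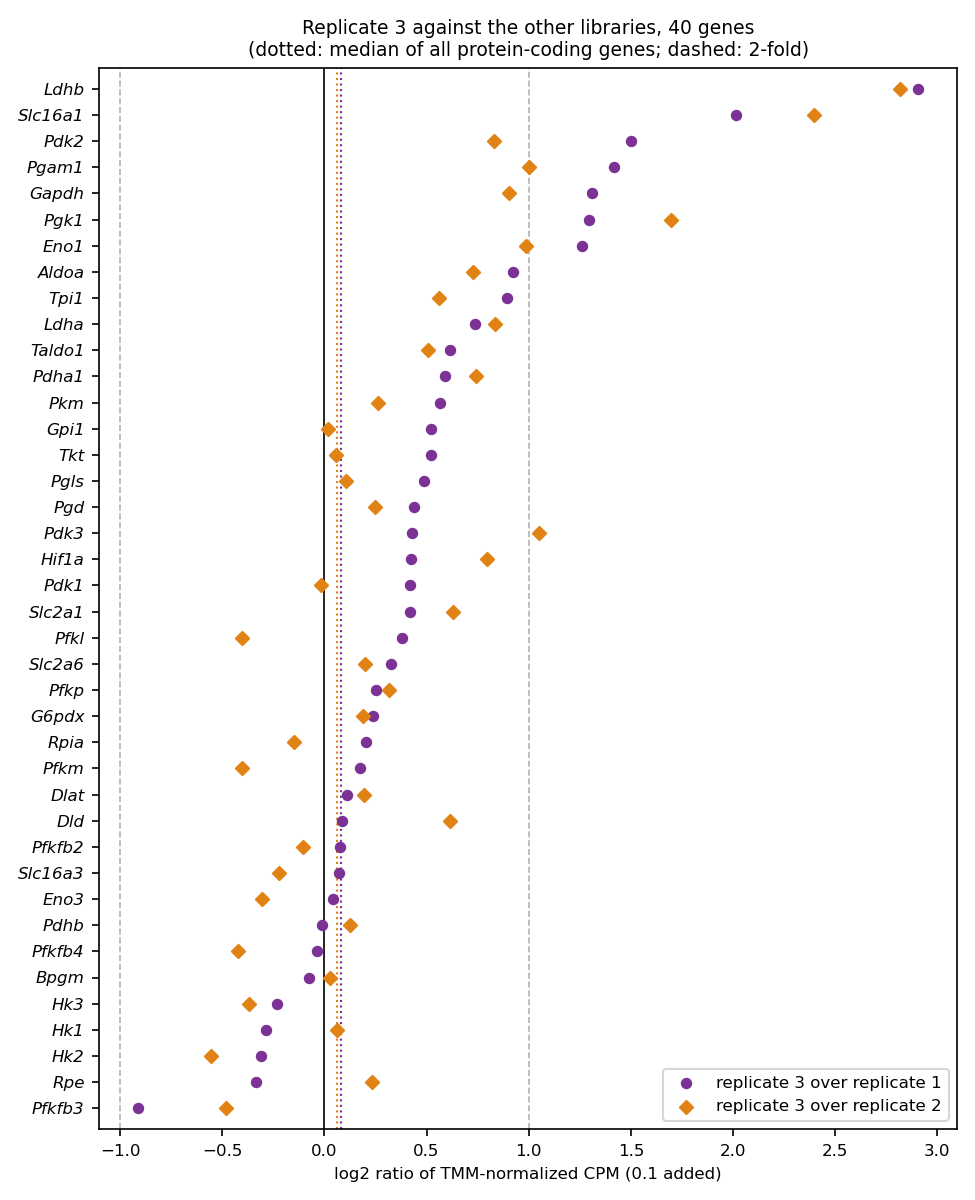
Log2 ratio of TMM-normalized CPM on the horizontal axis for replicate 3 over replicate 1 (circles) and over replicate 2 (diamonds), for the 40 members compared. Most points lie right of the dotted medians of all genes (0.08 and 0.06), Ldhb and Slc16a1 lie farthest right at low counts, and Pfkfb3 lies farthest left in the ratio to replicate 1.

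Promoter sequence was examined for the letters that form the core of the hypoxia response element, ACGTG or GCGTG, on either strand, in the 250 bases before each RefSeq start (GRCm38.p6). All 42 members had at least 1 such window. Of them 36 (85.7%) held a match in at least 1 window, against 48.2% of 16522 protein-coding genes and 64.2% of the 4838 with a mean of 10 TPM or more. Genes can have several windows, and these shares were not compared at an equal number of windows. By each gene's window richest in G and C, the median G and C content was 62.0% for the members. It was 56.8% over all genes and 61.6% over the genes at 10 TPM or more. A match is a description of letters and does not show a bound factor. Hk3 is shown as the highest gene, Pgk1 and Pgam1 as genes 2-fold or more higher in replicate 3 than in both other libraries by TMM-normalized CPM (Pgam1 by no other scaling or quantification over replicate 2), and Ldha as the member window with the most matches; capitals mark the matches, and where CACGTG stands it counts once on each strand.
Hk3, chr13:55021386-55021635, minus strand: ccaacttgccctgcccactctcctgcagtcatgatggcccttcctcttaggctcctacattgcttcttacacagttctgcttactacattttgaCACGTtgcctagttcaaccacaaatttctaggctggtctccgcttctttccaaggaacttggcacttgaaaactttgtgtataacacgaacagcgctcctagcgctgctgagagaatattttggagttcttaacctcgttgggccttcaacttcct
Pgk1, chrX:106186850-106187099, plus strand: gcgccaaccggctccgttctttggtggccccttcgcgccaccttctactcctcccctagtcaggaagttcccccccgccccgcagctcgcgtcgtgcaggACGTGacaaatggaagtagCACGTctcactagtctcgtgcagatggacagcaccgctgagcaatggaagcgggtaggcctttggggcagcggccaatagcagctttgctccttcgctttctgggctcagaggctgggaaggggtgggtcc
Pgam1, chr19:41911621-41911870, plus strand: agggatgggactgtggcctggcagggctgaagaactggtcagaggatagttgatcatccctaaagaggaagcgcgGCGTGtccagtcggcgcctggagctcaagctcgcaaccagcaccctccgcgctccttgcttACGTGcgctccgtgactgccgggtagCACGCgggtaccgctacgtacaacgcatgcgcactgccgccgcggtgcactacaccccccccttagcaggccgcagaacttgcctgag
Ldha, chr7:46845554-46845803, plus strand: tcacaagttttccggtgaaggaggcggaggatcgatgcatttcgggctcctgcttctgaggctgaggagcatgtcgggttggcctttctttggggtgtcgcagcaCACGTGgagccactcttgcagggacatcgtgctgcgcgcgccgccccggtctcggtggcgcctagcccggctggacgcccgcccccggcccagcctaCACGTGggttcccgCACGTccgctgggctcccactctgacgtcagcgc

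Hk3 had 1 match, Pgk1 had 2, Pgam1 had 3 and Ldha had 5. The share of G and C was 47.2% in the window of Hk3, 62.8% in that of Pgk1, 64.0% in that of Pgam1 and 67.2% in that of Ldha. The gene with the highest level thus had a window of low G and C content with a lone match.

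The annotation lists retained-intron transcripts for many members, and their share of a gene's read-based TPM describes how much of the signal fell on incompletely spliced models. Among the 26 members with such a transcript and a read-based mean of 10 TPM or more, the median share was 51.7%, against 46.2% over 5195 genes chosen in the same way, and 14 members had a share above 50% (44.2% of the genes). The 5 highest were Rpia at 79.5 ± 1.62%, Gpi1 at 76.9 ± 3.02%, Pfkp at 76.4 ± 1.59%, Pgd at 75.4 ± 3.18% and Taldo1 at 72.2 ± 6.34% (SD, n = 3). The lowest were Pfkfb2 at 10.9 ± 1.54%, Hk1 at 14.3 ± 2.45% and Pkm at 17.2 ± 1.48%. These single-gene shares depended on the quantification. Of them and those of Gapdh and Pgk1, 9 moved by at least 1 SD with the alignment-based tables and 1 did not. By shares of counts 8 moved and 2 did not. By shares of estimated counts in place of TPM the order turned, with a median of 32.4% over the 26 members and 33.6% over the 5195 genes. By read-based TPM, genes of neighbouring steps stood at opposite ends, such as Pfkp and Pfkfb2.

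Replicate 3 had the lowest retained-intron share of the 3 libraries in 16 of the 26 members, against 43.4% of all genes, and the members' median share was 54.9%, 53.0% and 46.3% in replicates 1, 2 and 3. In Gapdh the share was 83.5%, 80.3% and 40.1%, and in Pgk1 it was 47.4%, 45.9% and 26.2%. The read-based level of the retained-intron transcripts of Gapdh, in contrast, was 22.5, 17.7 and 20.4 TPM, and that of Pgk1 was 4.42, 4.01 and 4.64 TPM. In the alignment-based tables Gapdh-205, Gapdh-206 and Gapdh-213, all retained-intron transcripts, were each lowest in replicate 1. Gapdh-213 had 7.60, 11.8 and 10.3 TPM there. In the read-based tables the libraries thus differed in the spliced models. Gapdh-203, a 1420-base protein-coding transcript, had 1.92, 2.42 and 28.7 TPM, Pgk1-201 had 2.84, 3.57 and 10.2 TPM, and Aldoa-201 had 9.04, 9.12 and 24.9 TPM. Eno1 showed the same in Eno1-202, with 0.41, 0.72 and 9.45 TPM. Replicate 3 was also the library with the stromal markers, and their part in these differences was not tested.

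**Figure D4:**
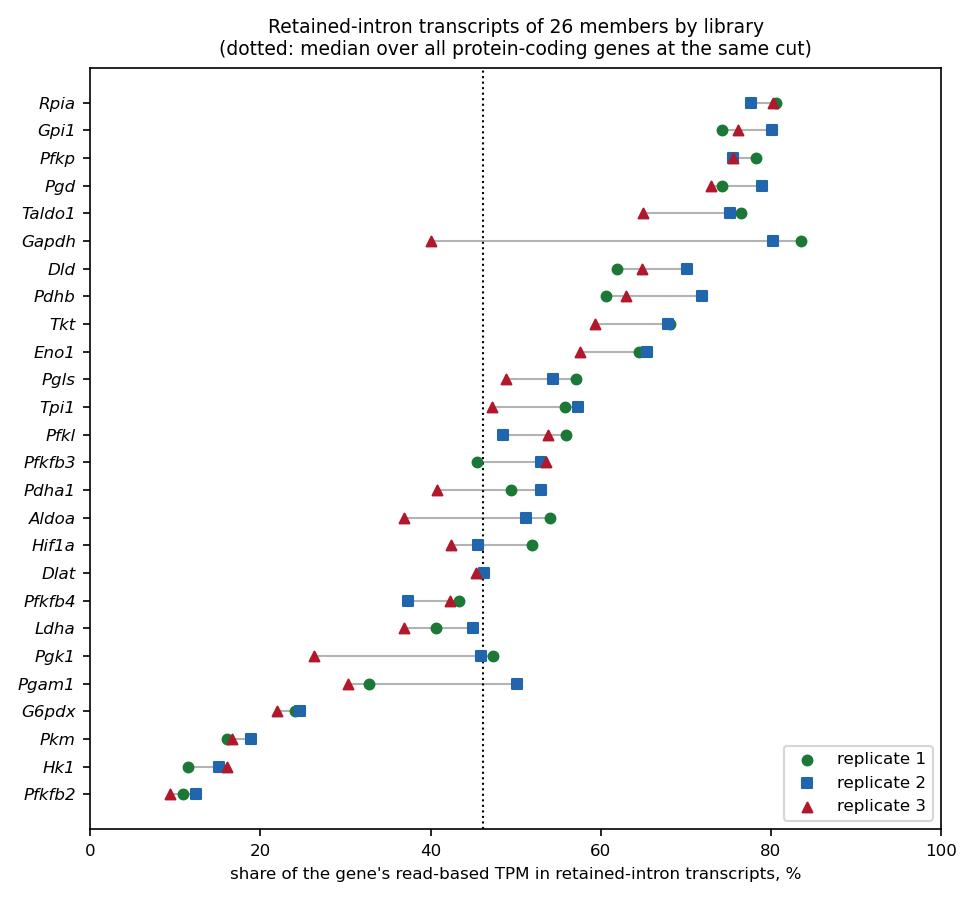
Share of each gene's read-based TPM in annotated retained-intron transcripts on the horizontal axis, for the 26 members at a read-based mean of 10 TPM or more, with a symbol for each library. Rpia, Gpi1, Pfkp and Pgd lie above 70% in all libraries, and Gapdh spans the widest range, from 40.1% in replicate 3 to 83.5% in replicate 1.

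The class of the highest single transcript in the read-based tables was counted for the members alone, without a share over all genes. For 22 of the 42 genes this transcript was protein-coding. It was a retained-intron model in 13 genes (Gpi1, Pfkp, Pfkfb3, Pfkfb4, Bpgm, Eno1, Ldha, Pgls, Pgd, Rpia, Tkt, Taldo1 and Hif1a), a processed transcript in 6 (Slc2a6, Hk3, Slc16a3, Pdk1, Dlat and G6pdx) and a transcript subject to nonsense-mediated decay in Rpe. Several of these models are short and differ between the quantifications. A processed transcript of Hk3, of 435 bases, had 223, 231 and 188 TPM in the read-based and 20.3, 15.7 and 13.6 TPM in the alignment-based tables. Rpe-205, of 759 bases, had 18.7, 17.7 and 17.1 TPM in the read-based tables and 0 in the alignment-based ones, and Dlat-205, of 484 bases, had 9.52, 9.53 and 9.40 TPM and 0.

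Processed pseudogenes limit what can be said of some members. A search of 13525 annotated pseudogenes with the longest protein-coding transcript of each member found copies (at least 85% identity over at least 200 bases) for 13 of the 42 genes and none for 29. Other genes were not searched, so no share over all genes is known. Gapdh had 266 copies, 70 of them at 95% identity or more, Ldha had 24, Pkm 9, Eno1 8, and Aldoa and Pgk1 7 each. The copies of Gapdh took up more expected counts than Gapdh itself in replicates 1 and 2, with 947, 1574 and 1679 against 405, 731 and 1678. The copies thus held 70.0%, 68.3% and 50.004% of the counts of gene and copies together, and how far reads were shared between Gapdh and its copies was not tested. Of the copies' counts 91.5%, 87.2% and 84.8% fell on 38 copies that lie inside the span of a protein-coding gene. The most covered was Gm11960 (chromosome 11, 4561780 to 4564637, plus strand, mm10; 92.9% identity over 984 bases), inside Mtmr3 on the other strand, with 502, 820 and 862 counts. Ldha copies held 25.4%, 32.5% and 19.9% of the counts of gene and copies, mostly in Gm5063, and Pgk1 copies 0%, 21.7% and 6.96%. For Taldo1 the single copy held 27.8%, 22.8% and 14.1%. For Pkm, Eno1, Pgam1, Tpi1 and Pdhb the share was under 6% in each library, and the copies of Aldoa had no counts. Gpi1 had 20.9%, 18.2% and 17.7%, but its match in Atp10d, annotated as a pseudogene, is short, with an identity of 86.2%.

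**Figure D5:**
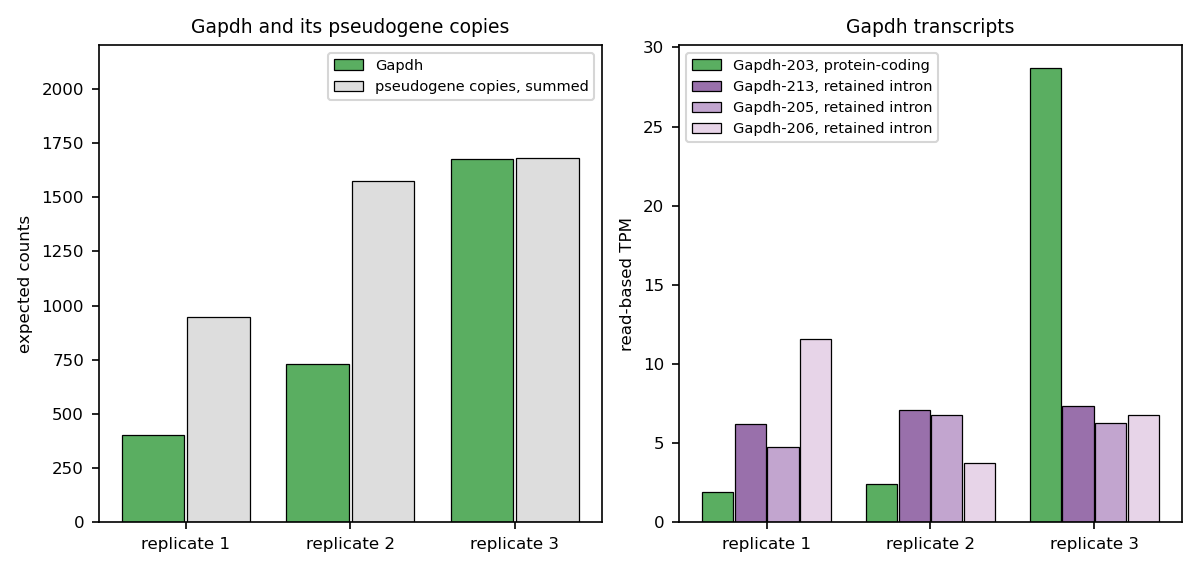
Left, expected counts of Gapdh and of its 266 pseudogene copies summed, by library; right, read-based TPM of the 4 highest Gapdh transcripts by library. Counts of the copies exceed those of the gene in replicates 1 and 2 and equal them nearly in replicate 3, where Gapdh-203 is at 28.7 TPM against 2.42 TPM or less.

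Exons of 17 members overlap those of another gene, on the same strand in 6 and on the other strand in 14. The share of all genes with such an overlap was not computed. The overlapping gene was itself abundant beside Gapdh (Iffo1, 50.1 TPM), Pfkm (Senp1, 41.997 TPM), Pkm (Gm49759 on the same strand, 40.6 TPM), G6pdx (Ikbkg, 25.2 TPM), Pfkp (Pitrm1, 22.9 TPM) and Rpe (Kansl1l, 20.9 TPM), and the levels of these members are uncertain to that extent. The read-based mean was above the alignment-based mean in 36 of the 42 genes, with a median quotient of 1.51 against 1.31 over all genes detected in every library. Pfkm differed most among members above 1 TPM, at 10.9 TPM read-based against 3.03 TPM, and Dlat had 29.9 against 9.98 TPM. Hk3 was the highest member in both quantifications, at 598 TPM read-based.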

How the data were processed

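Total RNA of the chromatin fraction was sequenced from 3 libraries of 1 group. Per the file headers and README texts, the authors used mm10 with GENCODE M21; no source used here names the aligner, the quantification tool and its version, or the strand counted. The authors deposited expected counts and TPM per gene (with interval bounds, whose level is not stated), alignment-based TPM per transcript, and read-based estimated counts and TPM per transcript. TPM were computed by the authors over all rows, including rows that name no gene, which held 1.31%, 0.476% and 0.24% of the expected counts and were left out here.

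The 42 symbols matched 43 gene IDs, since the 2 IDs of Aldoa were summed. The members and all gene lists were chosen with earlier results of these data known. Expected counts were rounded and fitted with edgeR 4.0.16 (R 4.3.3, TMM, robust quasi-likelihood fit with an intercept only, Benjamini-Hochberg adjustment), and ratios used a prior of 0.1 CPM and a mean of at least 10 counts. On simulated counts for 14545 genes, 26% of genes changed 2-fold and 100% of those changed 4-fold were recovered. The changed genes had a mean of at least 50 counts, so recovery at lower counts was not tested. Only 50 genes were changed at each fold, in 1 library. In the measured counts 8.16% of genes were 2-fold or more higher in replicate 3 than in both others. Recovery with so many changed genes was not tested. Counts were drawn with a coefficient of variation of 0.15 between libraries, and the fit gave 0.21 for the simulated and for the measured counts. Pairs of libraries differed by 39.1 to 72.0 chi-square units per degree of freedom, so none is a duplicate. Copies were searched with blastn 2.17.0. Genes named are all members, plus the genes of fixed lists with the highest and lowest means. Alternatives were another quantification, scaling, filters and leaving out each library. Precision is limited by 3 libraries, and a count of 0 allows up to 3 counts, counting error only.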

Additional observations from a re-analysis of the deposited data

How the results depend on the processing

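The median log2(TPM + 1) of the members, 4.28 against 0.94 over all protein-coding genes, was 4.68 against 1.90 with read-based TPM and 5.43 against 1.65 after renormalizing TPM to nuclear genes that code for proteins or long non-coding RNA. With read-based TPM 28 of 42 single levels moved by more than 1 SD, and with renormalized TPM 41 did.

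Variability between libraries (edgeR, adjusted p under 0.05) depended on the settings. Over all genes 24 passed; the count was 677 with no filter on low counts, 180 with a mean of at least 50 counts, 1 for nuclear protein-coding genes alone and 0 to 78 when a library was left out (0 without replicate 2, 38 without replicate 1, 78 without replicate 3). With a prior fitted without protection from outlying genes, an alternative chosen after seeing the data, it was 0, with 747 genes at an unadjusted p under 0.05. Among members, 1 passed with no filter and 12 had an unadjusted p under 0.05, and leaving out a library gave 1 to 9 in place of 7. The cause was not tested.

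For replicate 3 over replicate 2, 3 members were 2-fold higher by read-based counts (5.29% of all genes) in place of 5 (9.79%). For replicate 2 over replicate 1, the median was 0.38 by TPM (0.24 over all genes) in place of 0.16 (0.02). There, 1 member with any count included (4.94% of all genes), or 3 by read-based counts (2.48%), were 2-fold higher in place of none, and by TPM 1 member, Pdk3, was 2-fold lower (1.17%). The retained-intron share, as the mean over libraries of the members' median in each, was 33.1% by counts in place of 51.4%, and by counts the median over the members was under that of all genes. Without replicate 1 or replicate 2 the highest glucose transporter was Slc2a6. No paired analysis was possible because there is only 1 group. The missing control, the stromal markers of replicate 3, the unknown counting strand and the pseudogene copies limit the member levels.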
